A study of Mus musculus with 4 samples.

Results

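The tumour suppressor p53 and the DNA damage response were described here through 36 genes, taken by symbol from the 32285 genes counted in each of 4 single-nucleus RNA libraries of mouse primary motor cortex. The members fall into 6 roles: p53 with its inhibitors (3 genes), growth arrest (8), cell death (12), stress defence and RNA binding (3), DNA repair (4) and damage sensing (6). All animals were C57BL/6N mice, and each group was 1 library. The first group received a local injection of AAV8-hSyn-FLAG-SIK3(Ex13del), an adeno-associated virus in which the human synapsin promoter, active in neurons, drives FLAG-tagged SIK3 without exon 13. The second received the same vector with wild-type SIK3. The third was sleep deprived by gentle handling, and the fourth slept ad libitum without deprivation or vector. The labels used here give no number of animals per library, age, sex, length of deprivation or time since injection, so the treatment of a library and its mice, dissection or preparation cannot be told apart. With 1 library per group no difference could be tested. The intervals given below are exact 95% counting intervals that cover counting error only.

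In an undamaged cell, p53 protein is kept low by the ubiquitin ligase Mdm2 and its partner Mdm4. Breaks in DNA activate the kinases Atm and Atr, which act through Chek2 and Chek1 to stabilise p53, and p53 then raises the transcription of genes that stop the cell cycle, repair DNA, limit oxidative stress or start cell death. Mdm2 is itself a target, which closes a feedback loop. Neurons do not divide, and p53 is known in them mainly for its part in cell death after injury. SIK3 is a salt-inducible kinase, and the form without exon 13 is known from the Sleepy mouse line for increased sleep need.

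The libraries held 43655557 (Ex13del), 47662932 (wild type), 49422196 (sleep deprivation) and 54070503 UMIs (ad lib sleep), and 5306 to 8243 nuclei per library were kept. Libraries shared 9 to 16 barcodes with each other. Cell classes were named from marker genes as "X-like" classes, and 6 of them held at least 100 nuclei in every library. Excitatory neuron-like nuclei were the largest class, with 2163, 2758, 1893 and 3750 nuclei in the same order and median depths of 9915, 9121.5, 13800 and 7397 UMIs. Striatal projection neuron-like nuclei (217 to 421 per library) were present although the labels name the motor cortex. A vector feature, WPRE_pA, counted the end of the vector transcript. In excitatory neurons it stood at 126 CPM (counts scaled to a total of 1000000 UMIs) in the Ex13del library and 47.3 CPM in the wild-type library, and it had 0 UMIs in both libraries without vector. Levels below are CPM of the counts summed over the nuclei of a class.

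Among excitatory neurons, the clearest pattern of the 36 genes followed the vector in the Ex13del library. Nuclei with 3 or more vector UMIs (vector-rich, 99 Ex13del and 88 wild-type nuclei) were set against nuclei with none (vector-free, 1613 and 2194 nuclei). Genes averaging 5 CPM or more over both groups, with 20 UMIs or more, were compared and counted as higher or lower past 1.5-fold. In the Ex13del library 30 members could be compared, 22 were higher in vector-rich nuclei and 0 were lower, where 27.9% of all genes compared were higher and 12.1% lower. The median log2 ratio was 2.05 for the members and 0.21 for all genes. In the wild-type library 22 members could be compared, 6 were higher (Trp53inp1, Sesn2, Gadd45g, Plk3, Btg2 and Polk) and 0 were lower, where 10.4% of all genes were higher and 6.43% lower. The median there was 0.31 for the members and 0.09 for all genes. Over the alternative settings the wild-type count of members past 1.5-fold ran from 1 at a floor of 20 CPM to 11 with no floor or at 5 or more vector UMIs.

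Some members passed the floor only through their level in vector-rich nuclei. The 22 members that passed it in the ad lib sleep library, which holds no vector, are free of that choice: 14 of them were higher and 1 lower in Ex13del vector-rich nuclei (median log2 ratio 1.13, against 0.14 for all genes chosen in the same way, of which 22.6% were higher and 14.4% lower), and 5 were higher and 1 lower in wild-type vector-rich nuclei (0.30, against 0.07, with 8.61% of all genes higher and 8.23% lower). Scaling by the trimmed mean of M-values (TMM) lowered every log2 ratio by 0.36 in the Ex13del comparison and by 0.15 in the wild-type comparison. Under it the members' counts were 21 higher and 0 lower for Ex13del, and 4 higher and 2 lower for wild type. Ex13del ratios smaller than that shift, such as those of Atm and Ddb2 below, change side of 1 under it.

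**Figure D1:**
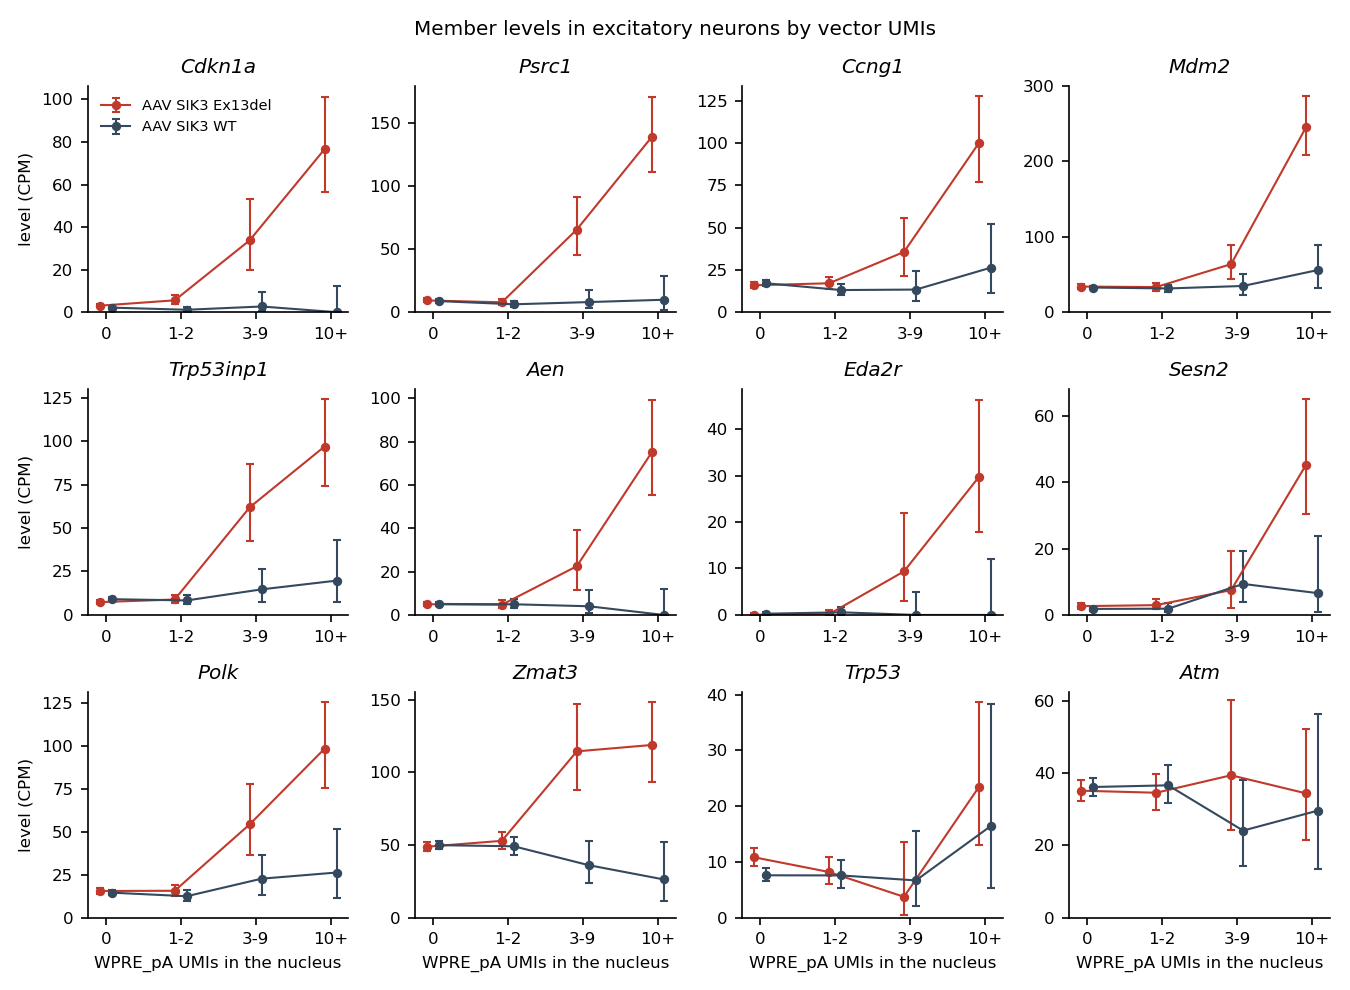
Level (CPM, linear axes that differ between panels) of 12 members in excitatory neurons grouped by vector UMIs per nucleus (0, 1 to 2, 3 to 9, 10 or more), in the Ex13del library (red) and the wild-type library (dark). Bars are exact Poisson 95% intervals; the Ex13del points of Cdkn1a reach 76.6 CPM at 10 or more vector UMIs, where the wild-type library had 0 UMIs, and those of Atm stay between 34.4 and 39.4 CPM.

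The summed level of all 36 members in Ex13del excitatory neurons was 715 CPM at 0 vector UMIs, 729 at 1 to 2, 1185 at 3 to 9 and 2349 at 10 or more (2232 to 2471). In wild-type neurons the same groups stood at 695, 688, 768 and 849 CPM (749 to 959). The 2 libraries separated at 3 to 9 vector UMIs, where the mean vector load was close in both libraries (4.68 UMIs per Ex13del nucleus and 4.85 per wild-type nucleus). At 10 or more the load was not matched: it averaged 44.6 UMIs in 52 Ex13del nuclei and 22.8 UMIs in 21 wild-type nuclei. Ex13del was also set directly against wild type within each range of vector UMIs. Without vector, 21 members could be compared and 0 were called in either direction, where 0.51% of all genes were higher and 0.1% lower. At 3 to 9 vector UMIs, 10 of 18 members were higher in Ex13del nuclei (median log2 ratio 0.67, against 0.02 for all genes, 18.8% of which were higher and 15.1% lower), and 0 were lower. At 10 or more, 20 of 24 were higher (1.65, against 0.16, with 30.7% of all genes higher and 16.1% lower) and 0 were lower. The floor averages both sides, so Cdkn1a passed it at 3 to 9 only through the Ex13del nuclei. Members such as Cdkn1a and Aen passed it at 10 or more in the same way. The direction of such members was then fixed by the floor, which was also applied to all genes.

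Single nuclei showed the same order. Of the 99 Ex13del vector-rich nuclei, 67 (67.7%) had a summed member level above 1337 CPM, the 95th percentile of vector-free nuclei of that library. Of the 88 wild-type vector-rich nuclei, 5 (5.68%) lay above the matching value of 1317 CPM. Across these nuclei, which share a library, the rank correlation (Spearman's rho) of the summed member level with vector UMIs was 0.67 in Ex13del (n = 99 nuclei) and 0.13 in wild type (n = 88 nuclei), and that with total UMIs was -0.07 in Ex13del and 0.00 in wild type, given as a description. Vector-rich nuclei were about as deep as vector-free ones, with medians of 9985 and 9466 UMIs in Ex13del and of 9740 and 9014.5 UMIs in wild type. Median doublet scores were 0.0477 in vector-rich and 0.0362 in vector-free Ex13del nuclei, and 0.0547 and 0.0359 in the wild-type library. Their part in the result was not tested.

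**Figure D2:**
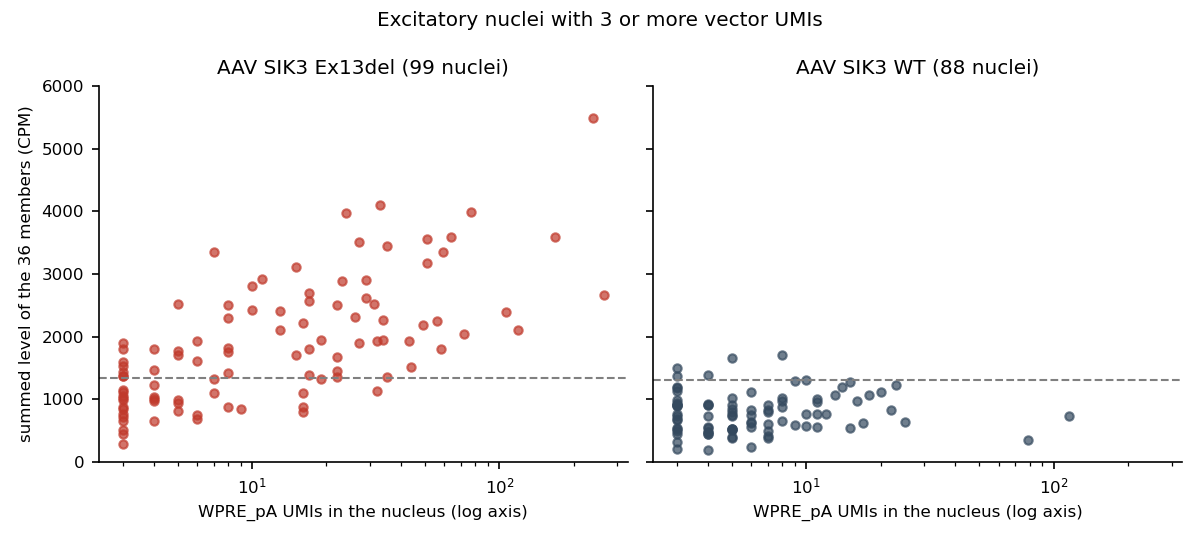
Summed level of the 36 members (CPM, y axis) against vector UMIs (x axis, log scale) in each vector-rich excitatory nucleus, 99 from the Ex13del library (left) and 88 from the wild-type library (right). The dashed line is the 95th percentile of vector-free nuclei of the same library (1337 and 1317 CPM); 67 Ex13del and 5 wild-type nuclei lie above it.

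Growth arrest genes were among the members with the steepest gradients. Cdkn1a, which encodes the cyclin-dependent kinase inhibitor p21 and lies at chr17:29090976-29100727 (mm10, plus strand), had 3.06, 5.58, 33.8 and 76.6 CPM in Ex13del neurons with 0, 1 to 2, 3 to 9 and 10 or more vector UMIs. Its wild-type levels in the same order were 2.14, 1.14, 2.68 and 0 CPM, the last with 0 UMIs in 21 nuclei. In Ex13del neurons it was 18.7-fold higher in vector-rich nuclei (95% interval 12.8 to 27.3), with UMIs in 46 of the 99. Wild-type vector-rich nuclei held 2 UMIs of it, a ratio of 0.891 with an interval from 0.105 to 3.40. Psrc1, a microtubule-binding protein of the spindle that p53 is known to regulate, had 9.34, 7.85, 65.6 and 139 CPM across the 4 ranges in Ex13del and 8.81, 6.26, 8.03 and 9.87 CPM in wild type. Its vector-rich to vector-free ratio was 11.3 (8.88 to 14.4) in Ex13del and 0.972 (0.438 to 1.88) in wild type. Both genes were near their vector-free levels throughout the wild-type library, and in Ex13del both had their largest fold step between 1 to 2 and 3 to 9 vector UMIs.

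Ccng1, encoding cyclin G1, which binds Mdm2, had 15.9, 17.1, 35.6 and 100.01 CPM across the same ranges in Ex13del and 17.1, 13.1, 13.4 and 26.3 CPM in wild type. The vector-rich ratio was 4.45 (3.44 to 5.70) in Ex13del and 1.002 (0.587 to 1.60) in wild type. Btg2, an antiproliferative gene that neurons also induce on activity, was higher in both libraries, as was Gadd45g below. Btg2 had 62.2 CPM in vector-rich and 14.6 in vector-free Ex13del nuclei (4.25-fold, 3.23 to 5.53), and 33.3 and 10.7 CPM in wild type (3.12-fold, 2.12 to 4.46). The Gadd45 genes encode small stress proteins that act on kinase signalling and DNA demethylation. Gadd45g had 46.9 CPM in vector-rich and 5.71 in vector-free Ex13del nuclei, against 8.56 and 3.16 CPM in wild type, but 19 of its 55 UMIs in Ex13del vector-rich nuclei came from 1 nucleus. Without that nucleus its ratio was 5.46 in place of 8.21, a setting chosen after the data were seen, as were the other ratios without 1 nucleus given below. Gadd45b had 31.5 CPM in vector-rich and 5.02 in vector-free Ex13del nuclei (6.29-fold, 4.16 to 9.34), while wild-type vector-rich nuclei held 1 UMI (0.951 CPM) against 4.09 CPM without vector. Gadd45a, at 5.97 CPM in vector-rich and 4.21 CPM in vector-free Ex13del nuclei, did not pass 1.5-fold, and Plk3, a stress kinase, had 3 UMIs in Ex13del vector-rich nuclei (2.56 CPM, against 5.88 without vector). In wild type Plk3 had 8.56 CPM in vector-rich and 5.47 in vector-free nuclei, from 9 UMIs, and the ratio of 1.56 was 1.24 without the nucleus that held 2 of them. With nuclei thinned to 3000 UMIs the log2 ratio of Plk3 in wild type changed sign, to -0.58.

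The promoters of 4 members held a close match to the p53 site in the window searched, and they are shown for that match. These genes were higher with the vector in Ex13del neurons, but so were members without a close match. The best pair in any window of the gene had 5 mismatches for Mdm2, Phlda3 and Sesn2 and 4 for Psrc1 and Eda2r. RefSeq windows from 250 bases before to 50 after a start (GRCm38.p6, the mm10 assembly) were at hand for 28 members. The consensus of p53 is a pair of adjoining decamers, searched by name on both strands. A gene with several starts had several windows, 32851 in all, and a match in any of them counted for the gene. A perfect single decamer was found for 10 of 28 members (35.7%) and 2582 of 27025 genes (9.55%). Both decamers, adjoining or 1 base apart and with at most 1 mismatch in all, were found for 4 of 28 members (14.3%) and 57 of 27025 genes (0.211%). The members include known p53 targets, so a larger share than among all genes can follow from their choice. Each sequence runs 5′ to 3′ on the gene's strand, with the paired decamers in capitals.
Cdkn1a: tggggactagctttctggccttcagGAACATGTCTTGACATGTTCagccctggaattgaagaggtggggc
Ccng1: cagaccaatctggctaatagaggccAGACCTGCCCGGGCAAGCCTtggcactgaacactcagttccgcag
Bax: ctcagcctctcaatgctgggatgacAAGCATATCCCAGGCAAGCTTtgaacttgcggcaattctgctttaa
Polk: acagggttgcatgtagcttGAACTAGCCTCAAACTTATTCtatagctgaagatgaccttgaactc
The Cdkn1a stretch is chr17:29090903-29090972 on the plus strand, outside annotated genes, with its match 32 to 51 bases before the start. The Ccng1 stretch is chr11:40755437-40755506 on the minus strand, also outside annotated genes, with its match 176 to 195 bases before the start. The Bax stretch is chr7:45467065-45467135 on the minus strand, within a part of the annotated gene Gm45808 that is not exonic, and its match lies 192 to 212 bases before the start. The Polk stretch is chr13:96519373-96519437 on the minus strand, in an intron of Polk 211 to 231 bases before an internal start. A match of letters is a description and shows no binding, and binding was not measured here.

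Cell death genes formed the largest role, with 12 members, of which 10 passed the floor in Ex13del. Members such as Eda2r, Pmaip1, Tnfrsf10b and Pidd1 passed it only through vector-rich nuclei, so that their direction was fixed by the floor. Aen, an apoptosis-enhancing nuclease, had 4.96, 4.71, 22.5 and 75.01 CPM in Ex13del neurons with 0, 1 to 2, 3 to 9 and 10 or more vector UMIs, and 5.07, 4.93, 4.01 and 0 CPM in wild type. Trp53inp1, a p53-induced protein of autophagy and cell death, had 7.38, 8.90, 61.9 and 96.9 CPM in Ex13del and 9.08, 8.34, 14.7 and 19.7 CPM in wild type. Its vector-rich ratio was 11.0 (8.32 to 14.4) in Ex13del and 1.78 (1.02 to 2.92) in wild type, so this gene was past 1.5-fold in both libraries. Bax, the pore-forming executioner of the mitochondrial pathway, had 49.4 CPM in vector-rich and 18.6 in vector-free Ex13del nuclei (2.65-fold, 1.97 to 3.52), against 22.8 and 15.7 CPM in wild type (1.45, 0.919 to 2.20). Among the BH3-only activators, Bbc3 (Puma) had 23.0 and 4.90 CPM in Ex13del (4.70-fold, 2.93 to 7.32) and 6.66 and 5.16 CPM in wild type. Pmaip1 (Noxa) had 19 UMIs in 16 of 99 Ex13del vector-rich nuclei (16.2 CPM, against 0.577 without vector), and 2 UMIs in wild-type vector-rich nuclei (1.90 CPM, against 0.712).

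The death receptors were near zero in vector-free neurons. Eda2r, a TNF receptor family member on chromosome X, had 1 UMI in 1613 vector-free Ex13del nuclei and 24 UMIs in 16 of 99 vector-rich ones (20.5 CPM). The ratio of 355 has an interval from 57.9 to 14591 because of that single UMI. Wild-type vector-rich nuclei held 0 UMIs of Eda2r, against 6 without vector. Tnfrsf10b, the mouse receptor for the ligand TRAIL, had 15.3 CPM in vector-rich and 1.04 in vector-free Ex13del nuclei (14.8-fold, 7.26 to 30.1), and 0 UMIs in wild-type vector-rich nuclei. Fas, the receptor for Fas ligand, stayed below the floor, with 7 UMIs in 4 vector-rich Ex13del nuclei (5.97 CPM, against 0.231). Pidd1, a death domain adaptor, had 12.8 and 0.980 CPM in Ex13del, against 0.951 and 0.801 CPM in wild type. Phlda3, an inhibitor of Akt signalling, had 25.6 and 3.86 CPM in Ex13del (6.62-fold, 4.15 to 10.3) and 3.81 and 2.85 CPM in wild type. Ei24, of the endoplasmic reticulum, had 81.0 and 39.4 CPM in Ex13del (2.06-fold, 1.64 to 2.55) and 35.2 and 38.8 CPM in wild type. Perp, a membrane protein of the desmosome, was below the floor in both libraries.

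Among p53 and its inhibitors, Mdm2 was higher in Ex13del vector-rich nuclei, and the interval of the Trp53 ratio included 1. Mdm2 (chr10:117688875-117710758, minus strand) had 34.0, 33.3, 63.8 and 245 CPM in Ex13del neurons with 0, 1 to 2, 3 to 9 and 10 or more vector UMIs, and 32.7, 31.5, 34.8 and 56.0 CPM in wild type. It was 4.79-fold higher in vector-rich Ex13del nuclei (4.05 to 5.65). A single nucleus held 36 of its 191 UMIs there, and without it the ratio was 3.95. In wild type the ratio was 1.25 (0.897 to 1.70). Mdm4 had 141 and 90.7 CPM in Ex13del (1.55-fold, 1.31 to 1.82) and 117 and 93.9 CPM in wild type (1.25, 1.03 to 1.496), and its Ex13del ratio fell under 1.5 with TMM. Trp53 had 14.5 and 10.8 CPM in Ex13del (1.34, 0.763 to 2.20) and 9.51 and 7.61 CPM in wild type (1.25, 0.589 to 2.36).

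Among stress genes, the sestrins, which restrain mTORC1, differed from each other. Sesn2 had 28.1 CPM in vector-rich and 2.65 in vector-free Ex13del nuclei (10.6-fold, 6.57 to 17.0), and 8.56 and 1.82 CPM in wild type (4.69-fold, 2.01 to 9.80, from 9 UMIs). Sesn1 had 139 and 99.5 CPM in Ex13del (1.40, 1.18 to 1.64) and 101 and 101 CPM in wild type. Zmat3, an RNA-binding splicing regulator and p53 target, went to opposite sides: it had 117 and 48.8 CPM in Ex13del (2.39-fold, 1.98 to 2.87), and 33.3 and 49.9 CPM in wild type (0.667, 0.462 to 0.934).

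Repair and sensing genes had the smallest median log2 ratios of the 6 roles in Ex13del (0.31 and 0.53). These medians cover the members that passed the floor. Some growth arrest and cell death members passed it only through vector-rich nuclei, so the order of the roles can depend on the floor. Polk, a translesion DNA polymerase, was the repair gene that passed 1.5-fold, with 78.4 and 15.6 CPM in Ex13del (5.04-fold, 3.93 to 6.41) and 23.8 and 14.6 CPM in wild type (1.63-fold, 1.04 to 2.45). The wild-type ratio of Polk was 1.36 without the nucleus that held 5 of its 25 UMIs, and its log2 ratio was -0.0566 with nuclei thinned to 3000 UMIs. The nucleotide excision repair factors Xpc and Ddb2 had Ex13del ratios of 0.982 (0.583 to 1.56) and 1.07 (0.848 to 1.33). Rrm2b, the p53-dependent ribonucleotide reductase subunit, had 28.1 and 19.1 CPM in Ex13del (1.47, 0.995 to 2.10). Of the sensors, the kinase Atm had 36.7 and 35.1 CPM in Ex13del (1.04, 0.748 to 1.42). Atr had 106 and 53.7 CPM in Ex13del (1.97-fold, 1.62 to 2.38) and 73.2 and 55.5 CPM in wild type (1.32, 1.03 to 1.66). Trp53bp1, which binds chromatin beside breaks, had 98.9 and 68.2 CPM in Ex13del (1.45, 1.19 to 1.76) and 60.9 and 62.8 CPM in wild type. Chek1, Chek2 and Brca1 had 6, 4 and 4 UMIs in Ex13del vector-rich nuclei and stayed below the floor. Polk and Atr each overlap a counted gene on the opposite strand, and whether the counting used strand is not given in the sources used here.

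**Figure D3:**
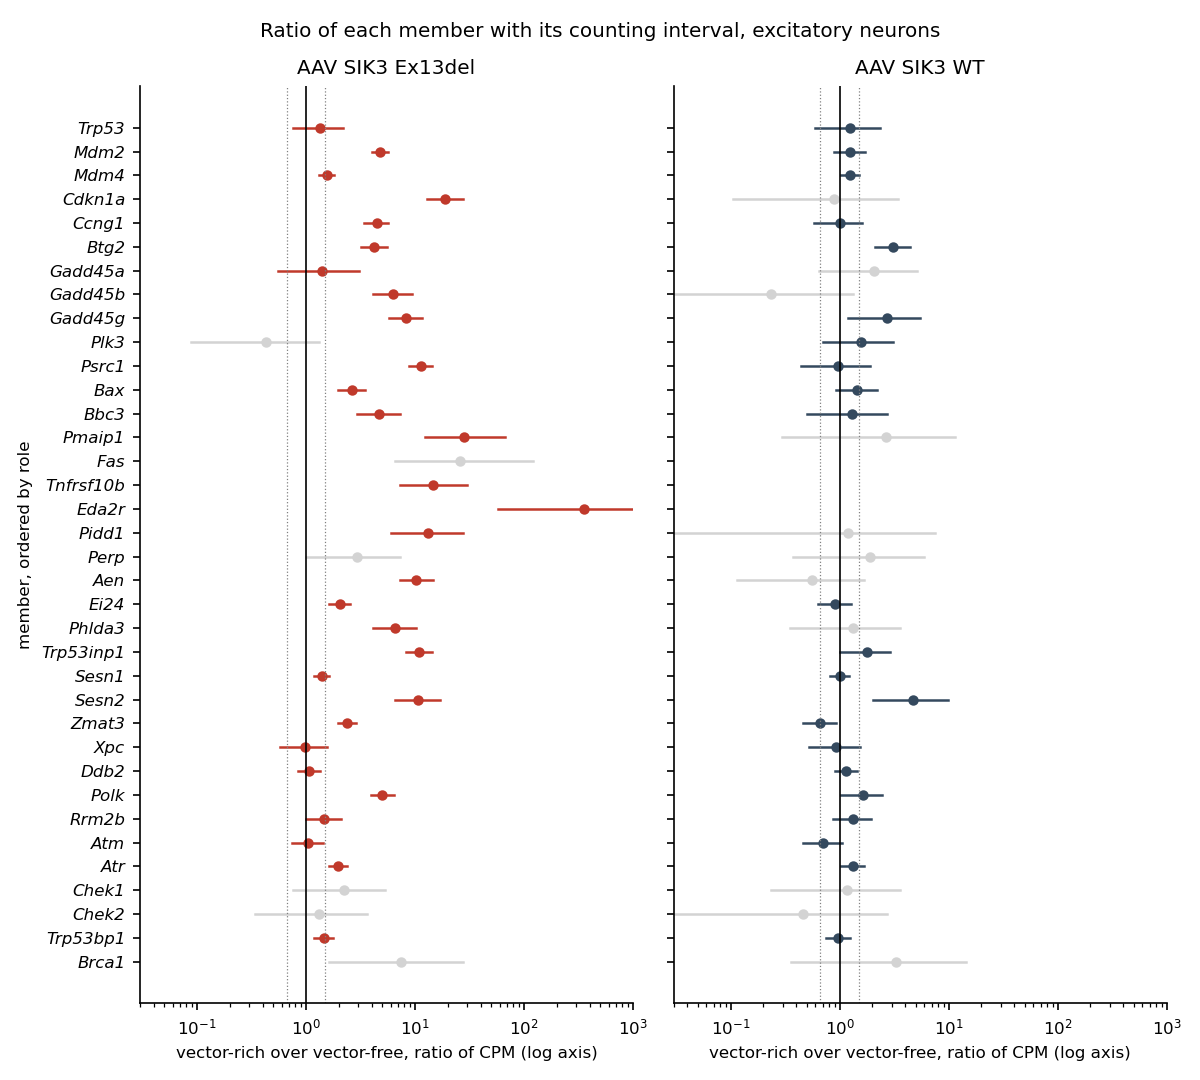
Ratio of the level in vector-rich nuclei to that in vector-free nuclei (log axis) for the 36 members, ordered by role, in excitatory neurons of the Ex13del library (left) and the wild-type library (right). Bars are exact 95% counting intervals, clipped at the axis ends, dotted lines mark 1.5-fold, grey points are below the floor, and members with 0 UMIs in a group are not drawn; the Ex13del points of the growth arrest and cell death roles lie mostly right of the line, those of wild type around 1.

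By role, the summed level at 10 or more vector UMIs and without vector in Ex13del neurons was 549 and 63.8 CPM for growth arrest, 538 and 83.7 for cell death, and 427 and 136 for p53 with its inhibitors. It was 336 and 151 CPM for stress genes, 225 and 119 for repair, and 275 and 162 for sensing. In wild-type neurons the same sums were 115 and 53.8 CPM for growth arrest, 128 and 81.2 for cell death, and 171 and 134 for p53 with its inhibitors. They were 105 and 152 CPM for stress genes, 132 and 114 for repair, and 197 and 159.5 for sensing. Growth arrest and cell death had the largest differences in Ex13del.

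The summed member level was higher in vector-rich than in vector-free nuclei in each of the 6 Ex13del excitatory clusters with at least 4 vector-rich nuclei. It was 1726 CPM in 21 vector-rich and 702 CPM in 427 vector-free nuclei of the layer 6 corticothalamic-like cluster, and 1633 and 730 CPM in the layer 2/3 intratelencephalic-like cluster. It was 1342 and 662 CPM in the layer 5 extratelencephalic-like cluster and 2664 and 707 CPM in the layer 6 intratelencephalic-like cluster. In the wild-type library the same clusters had 689 and 695, 825 and 710, 746 and 651, and 745 and 680 CPM. An excitatory cluster with no layer name had 1404 and 681 CPM in Ex13del and 871 and 656 CPM in wild type. The layer 6 intratelencephalic-like cluster held 22 of 52 Ex13del nuclei with 10 or more vector UMIs but 156 of 1613 without, and without that cluster the members' median log2 ratio was 1.33 in place of 2.05, against 0.16 for all genes. There 19 of 26 members were higher and 0 lower, where 24.7% of all genes were higher and 13.2% lower. Restricting vector-rich nuclei to 3 to 19 vector UMIs gave a median of 1.28 for the members and 0.12 for all genes, with 19 of 27 members higher and 1 lower, where 22.1% of all genes were higher and 12.3% lower. Both of these settings were chosen after the data were seen. In both, members could pass the floor only through their level in vector-rich nuclei, which fixes their direction.

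Other values moved with the vector in the same nuclei. The Sik3 row had 482 CPM in vector-rich and 179 in vector-free Ex13del nuclei, and 380 and 183 CPM in wild type. The 7 excitatory neuron markers summed to 1612 CPM in vector-rich and 2607 CPM in vector-free Ex13del nuclei, with none at 0, and to 2193 and 2598 CPM in wild type. The 9 striatal projection neuron markers summed to 533 CPM in vector-rich and 886 CPM in vector-free Ex13del nuclei, and to 1337 and 938 CPM in wild type, where 1 of the 9 was at 0 in vector-rich nuclei. The 8 microglia markers summed to 193 CPM in vector-rich and 168 CPM in vector-free Ex13del nuclei, with 1 at 0 in vector-rich nuclei, and to 178 and 173 CPM in wild type. Vascular markers were higher in Ex13del vector-rich nuclei: the 8 endothelial markers summed to 54.6 CPM in vector-rich and 27.3 CPM in vector-free nuclei, with none at 0, and the 8 mural markers to 48.6 and 21.2 CPM, with 1 at 0 in vector-rich nuclei. The 7 fibroblast markers summed to 32.4 CPM in vector-rich and 9.34 CPM in vector-free Ex13del nuclei, with 4 of 7 at 0 in vector-rich nuclei. At 10 or more vector UMIs these 3 lists stood at 78.1 (endothelial), 65.6 (mural) and 39.1 CPM (fibroblast) in Ex13del. In wild type the vector-rich and vector-free sums were 36.1 and 31.3 CPM for endothelial, 24.7 and 23.5 CPM for mural and 18.1 and 10.7 CPM for fibroblast markers, with 1 of 8, 3 of 8 and 2 of 7 at 0 in vector-rich nuclei. Astrocyte markers had 124 and 154 CPM in Ex13del and 205 and 153 CPM in wild type, and oligodendrocyte markers 198 and 188 CPM in Ex13del and 207 and 191 CPM in wild type. The 11 inhibitory neuron markers had 272 and 256 CPM in Ex13del and 269 and 285 CPM in wild type, and the 6 oligodendrocyte precursor markers 511 and 583 CPM in Ex13del and 514 and 589 CPM in wild type. In vector-rich nuclei 1 astrocyte marker was at 0 in Ex13del, and 1 microglia and 1 oligodendrocyte precursor marker were at 0 in wild type. Their part in the members' levels was not tested.

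Lists of neighbouring pathways had smaller median ratios than the members in the Ex13del comparison. The members and lists were chosen with earlier results of these data known, and some members passed the floor only through vector-rich nuclei. This order is therefore a description and no support for the choice of members. Of 29 other p53 targets, 18 could be compared in Ex13del and 10 were higher and 3 lower in vector-rich nuclei, with a median log2 ratio of 0.60. In wild type 4 of 16 were higher and 1 lower, with a median of 0.03. Apaf1, the apoptosome scaffold, had 136 CPM in vector-rich and 12.6 CPM in vector-free Ex13del nuclei (10.8-fold, 8.75 to 13.3), and the noncoding RNA Pvt1 had 371 and 72.4 CPM (5.12-fold, 4.58 to 5.71). For double-strand break sensing and repair, 6 of 22 genes were higher and 1 lower in Ex13del, and 3 of 20 were higher and 1 lower in wild type. Rad50, of the break-binding MRN complex, had 60.5 and 29.1 CPM in Ex13del (2.08-fold, 1.60 to 2.67), and Prkdc, the DNA-dependent protein kinase, was lower with 31.5 and 53.7 CPM (0.587, 0.411 to 0.815). For excision repair, 5 of 16 genes were higher in Ex13del and 3 of 17 in wild type, with Ercc5 at 71.6 and 26.7 CPM in Ex13del and at 42.8 and 24.4 CPM in wild type. Immediate early genes, which mark neuronal activity, were higher for 8 and lower for 3 of 12 in Ex13del and higher for 6 and lower for 1 of 11 in wild type. Glucocorticoid-induced genes were higher for 3 and lower for 1 of 10 in Ex13del and higher for 1 of 9 in wild type. The shares of all genes given above for the same comparisons apply to these lists. In Ex13del the counts higher for break repair, excision repair and glucocorticoid-induced genes were near the share of all genes higher.

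Inhibitory neurons gave the same order with fewer nuclei. The Ex13del library had 17 vector-rich and 433 vector-free inhibitory nuclei, and 13 of the 21 members compared were higher and 3 lower in vector-rich ones, where 19.6% of all genes were higher and 24.2% lower. The median log2 ratio was 1.05 for the members and -0.04 for all genes. Members such as Cdkn1a passed the floor here only through vector-rich nuclei, so that their direction was fixed by the floor. Mdm2 had 174 CPM in vector-rich and 34.2 in vector-free nuclei (5.09-fold, 3.27 to 7.69), Cdkn1a had 74.6 and 2.72 CPM (27.4-fold, 11.1 to 68.5), and Zmat3 had 193 and 63.2 CPM (3.05-fold, 2.03 to 4.44). Trp53inp1 had 93.3 and 11.4 CPM (8.19-fold, 4.25 to 14.9). In the wild-type library, with 28 vector-rich and 625 vector-free nuclei, 10 of 22 members were higher and 3 lower, where 18.1% of all genes were higher and 18.8% lower, and the median was 0.22 for the members and 0.05 for all genes. There Mdm2 had 25.9 and 35.3 CPM (0.734, 0.291 to 1.54) and Zmat3 had 62.9 and 61.2 CPM. Of the vector-rich inhibitory nuclei, 8 of 17 in Ex13del and 0 of 28 in wild type exceeded the 95th percentile of vector-free nuclei.

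In whole classes, most nuclei had no vector UMIs. In all excitatory neurons, Ex13del over wild type, 23 members could be compared, 3 were higher and 0 lower, where 1.08% of all genes were higher and 0.0583% lower. The median log2 ratio was 0.17 for the members and 0.04 for all genes. The members called were Psrc1 (13.7 CPM in Ex13del and 8.34 in wild type, 1.64-fold, 1.38 to 1.94), Gadd45b (7.67 and 3.99, 1.92-fold) and Gadd45g (7.30 and 3.20, 2.28-fold). Cdkn1a was under the floor with 6.27 CPM (5.31 to 7.35) in Ex13del and 1.94 CPM (1.47 to 2.53) in wild type, a ratio of 3.22 (2.36 to 4.46). So were Sesn2 (3.96 and 2.08 CPM), Gadd45a (4.12 and 2.40), Phlda3 (5.15 and 3.16), Tnfrsf10b (1.61 and 0.451), Pidd1 (1.36 and 0.729) and Eda2r (1.07 and 0.313), each with an interval of the ratio above 1.

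The wild-type AAV library was close to ad lib sleep in excitatory neurons. Of 20 members compared, 0 were higher and 1 was lower, where 0.25% of all genes were higher and 0.833% lower, and the median log2 ratio was -0.04 for the members and -0.02 for all genes. The lower member was Btg2, with 11.6 CPM in the wild-type AAV library and 20.4 CPM in ad lib sleep (0.568, 0.496 to 0.650). Gadd45g, below the floor, had 3.20 CPM in the wild-type AAV library and 5.38 CPM in ad lib sleep (0.594, 0.456 to 0.771).

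Few of the 36 genes differed with sleep deprivation in neurons. In excitatory neurons, sleep deprivation over ad lib sleep, 21 members could be compared, 0 were higher and 2 lower, where 1.66% of all genes were higher and 3.62% lower. The median log2 ratio was -0.08 for the members and -0.03 for all genes. Btg2 had 6.74 CPM (5.82 to 7.75) after sleep deprivation and 20.4 CPM (18.9 to 22.1) in ad lib sleep, a ratio of 0.330 (0.280 to 0.388), and the 2 AAV libraries lay between at 17.1 (Ex13del) and 11.6 CPM (wild type). Bbc3 had 4.08 CPM after sleep deprivation and 6.41 CPM in ad lib sleep (0.636, 0.502 to 0.803). Below the floor, Cdkn1a had 4.59 CPM after sleep deprivation and 2.58 CPM in ad lib sleep (1.78, 1.34 to 2.38), Chek2, the kinase downstream of Atm, had 2.76 and 1.74 CPM (1.59, 1.11 to 2.29), and Gadd45g had 2.94 and 5.38 CPM (0.546, 0.416 to 0.713). Psrc1 had 12.02 CPM after sleep deprivation and 8.79 CPM in ad lib sleep (1.37, 1.16 to 1.61). The sensors Trp53bp1 (52.2 and 66.8 CPM) and Atr (47.0 and 57.1 CPM) and the repair gene Ddb2 (60.9 and 76.2 CPM) were modestly lower, with intervals below 1. The repair genes Xpc, Rrm2b and Polk were not lower, and neither was the sensor Chek2. The share of all genes with an interval below 1 is not given here.

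Outside excitatory neurons, Cdkn1a was higher after sleep deprivation in several classes. In endothelial-like nuclei it had 93.3 CPM (69.1 to 123) after sleep deprivation and 12.4 CPM (4.97 to 25.5) in ad lib sleep, a 7.55-fold difference (3.40 to 19.8), and the AAV libraries had 29.7 CPM (Ex13del) and 10.5 CPM (wild type). In oligodendrocyte-like nuclei it had 18.1 and 4.82 CPM (3.76-fold, 1.57 to 10.3), and in astrocyte-like nuclei 14.6 and 3.16 CPM (4.63-fold, 1.68 to 15.8). In both of these classes Cdkn1a passed the floor only through the deprived library, so that its direction was fixed by the floor. In inhibitory neurons it was below the floor, with 3.35 and 0.710 CPM (4.72-fold, 1.67 to 16.4). Sleep deprivation was the highest library for Cdkn1a in endothelial and astrocyte-like nuclei, and the Ex13del library was the highest in oligodendrocyte-like nuclei (22.9 CPM) and in both excitatory and inhibitory neurons. Ad lib sleep was also below the wild-type AAV library for Cdkn1a in astrocyte-like nuclei (3.16 and 9.21 CPM) and in oligodendrocyte-like nuclei. Trp53inp1 in endothelial-like nuclei had 57.1 CPM after sleep deprivation and 19.4 CPM in ad lib sleep (2.94-fold, 1.43 to 6.51), and Fas had 164 and 88.3 CPM (1.85-fold, 1.29 to 2.68). For both genes ad lib sleep was the lowest of the 4 libraries, since Trp53inp1 had 66.2 CPM in Ex13del and 46.1 CPM in the wild-type AAV library and Fas had 183 and 134 CPM there. The same 3 genes were higher in mural-like nuclei, of which sleep deprivation held 72: Cdkn1a had 89.3 and 14.98 CPM, Trp53inp1 86.6 and 32.5 CPM, and Fas 119 and 37.5 CPM. There 4 of 18 members compared were higher and 3 lower (background 13.1% and 13.9%). Ad lib sleep was again the lowest library for mural Trp53inp1 (81.6 CPM in Ex13del and 69.1 CPM in the wild-type AAV library) and Fas (88.4 and 93.4 CPM). For mural Cdkn1a the lowest was the wild-type AAV library (10.2 CPM).

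**Figure D4:**
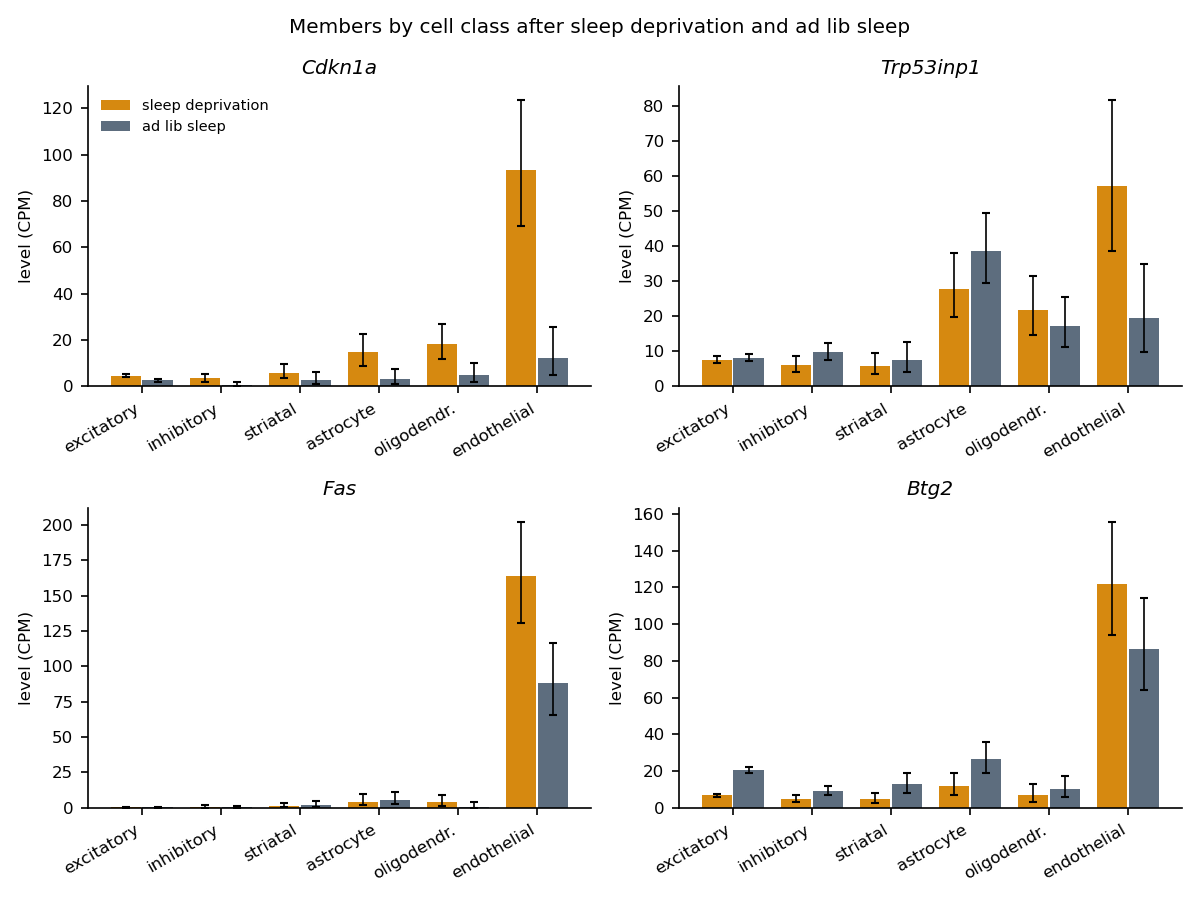
Level (CPM) of Cdkn1a, Trp53inp1, Fas and Btg2 in 6 cell classes after sleep deprivation (left bar of each pair) and in ad lib sleep (right bar), with exact Poisson 95% intervals. Cdkn1a reaches 93.3 CPM after sleep deprivation in endothelial-like nuclei against 12.4 CPM in ad lib sleep, and Btg2 is lower after sleep deprivation in excitatory neurons (6.74 and 20.4 CPM).

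Members were also counted in the other classes, sleep deprivation over ad lib sleep. In inhibitory neurons 0 of 22 members were higher and 2 lower (background 1.75% and 4.52%), and in striatal projection neuron-like nuclei 0 of 18 were higher and 3 lower (5.44% and 15.3%). In astrocyte-like nuclei 2 of 22 were higher and 2 lower (9.16% and 10.3%), in oligodendrocyte-like nuclei 2 of 23 higher and 4 lower (9.18% and 10.2%), and in endothelial-like nuclei 3 of 18 higher and 0 lower (10.6% and 12.7%). Btg2 was lower after sleep deprivation in inhibitory neurons (4.73 and 9.09 CPM, 0.520, 0.311 to 0.844), in astrocyte-like nuclei (11.7 and 26.5 CPM, 0.440, 0.231 to 0.8001) and in striatal-like nuclei (4.83 and 12.8 CPM, 0.376, 0.180 to 0.757), but had 122 and 86.5 CPM in endothelial-like nuclei. Trp53inp1 was lower in inhibitory neurons (6.11 and 9.80 CPM, 0.624, 0.394 to 0.966). In striatal-like nuclei Polk had 9.66 and 19.8 CPM (0.488, 0.288 to 0.819) and Atr 32.1 and 54.6 CPM (0.588, 0.439 to 0.786). Sesn1 had 117 CPM after sleep deprivation and 81.9 CPM in ad lib sleep in oligodendrocyte-like nuclei (1.43, 1.12 to 1.83) and 232 and 168 CPM in endothelial-like nuclei (1.39, 1.05 to 1.83). Ccng1 in microglia-like nuclei had 3 UMIs after sleep deprivation (13.2 CPM, against 49.9 in ad lib sleep), and Btg2 in fibroblast-like nuclei had 31.3 and 100.2 CPM (0.313, 0.125 to 0.725).

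Glucocorticoid-induced genes, which respond to the stress hormone, were counted in the same classes. After sleep deprivation 10 of 11 of them were higher in oligodendrocyte-like nuclei, 6 of 11 in astrocyte-like nuclei and 4 of 9 in endothelial-like nuclei. In inhibitory neurons 2 of 9 were higher and in excitatory neurons 1 of 9, with 0 lower in these classes. The shares of all genes higher in each class are those given above. Cdkn1a, below the floor in excitatory neurons, had a ratio above 1 there too. Among immediate early genes, 2 of 11 were higher and 2 lower in excitatory neurons. Deprived nuclei were also deeper, with medians of 1962.5 UMIs after sleep deprivation and 1221 UMIs in ad lib sleep in endothelial-like nuclei, 2963 and 1676 UMIs in oligodendrocyte-like nuclei and 3716 and 2279 UMIs in astrocyte-like nuclei. Their part in the Cdkn1a difference was not tested.

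Ex13del was also set against wild type in the other classes. In inhibitory neurons 0 of 21 members were called higher and 0 lower (background 1.68% and 1.22%), in striatal-like nuclei 1 of 17 higher and 0 lower (6.51% and 4.84%), and in astrocyte-like nuclei 2 of 22 higher and 2 lower (7.87% and 6.18%). In oligodendrocyte-like nuclei 5 of 24 were higher and 0 lower (8.53% and 5.67%), and in endothelial-like nuclei 4 of 17 higher and 0 lower (10.3% and 9.15%). Cdkn1a had 22.9 CPM in Ex13del and 11.9 in wild-type oligodendrocyte-like nuclei (1.92, 1.01 to 3.82), where vector stood at 204 and 151 CPM, and 5.26 and 1.42 CPM in inhibitory neurons (3.71, 1.70 to 8.93), where it was below the floor. Ddb2 in striatal-like nuclei had 65.0 and 38.7 CPM (1.68, 1.26 to 2.26), Xpc in astrocyte-like nuclei 24.7 and 9.97 CPM (2.48, 1.26 to 5.16), and Ccng1 in endothelial-like nuclei 34.2 and 10.5 CPM (3.26, 1.13 to 11.5). Polk was lower in astrocyte-like nuclei, with 18.3 and 34.5 CPM (0.531, 0.307 to 0.896). In classes under 100 nuclei in some library, Sesn1 had 68.9 and 122 CPM in oligodendrocyte precursor-like nuclei (0.562), Mdm4 85.0 and 138 CPM in mural-like nuclei (0.616), and Plk3 37.8 and 10.9 CPM in microglia-like nuclei (3.45), each with an interval that excludes 1.

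Between the wild-type AAV library and ad lib sleep, the following members in the other classes had an interval away from 1. No share of all genes is set beside them, so they are single values and no pattern of classes. Some classes were small, with 131 (wild-type AAV) and 141 (ad lib sleep) mural-like and 33 and 56 fibroblast-like nuclei. Trp53inp1 had 46.1 CPM with AAV and 19.4 CPM in ad lib sleep in endothelial-like nuclei (2.38, 1.10 to 5.42) and 69.1 and 32.5 CPM in mural-like nuclei (2.13). Fas had 134 and 88.3 CPM in endothelial-like nuclei (1.52, 1.03 to 2.25) and 93.4 and 37.5 CPM in mural-like nuclei (2.49). In oligodendrocyte-like nuclei Ccng1 had 35.02 and 17.2 CPM (2.04, 1.22 to 3.47) and Polk 40.6 and 24.1 CPM (1.69, 1.08 to 2.67). In astrocyte-like nuclei Aen was higher with 20.7 and 9.47 CPM (2.19), while Btg2 (13.0 and 26.5 CPM), Ei24 (31.5 and 50.5 CPM) and Xpc (9.97 and 20.8 CPM) were lower. Btg2 had 1.27 and 12.8 CPM in striatal-like nuclei and 17.8 and 100.2 CPM in fibroblast-like nuclei, each from 2 UMIs with AAV. Gadd45g had 2.54 and 10.2 CPM in striatal-like nuclei (0.2499, 0.0618 to 0.752). Atm had 18.9 and 42.4 CPM in endothelial-like nuclei (0.445), Ddb2 24.4 and 72.4 CPM in mural-like nuclei (0.337), and Bax 37.2 and 77.4 CPM in microglia-like nuclei (0.481). Both comparisons that involve ad lib sleep share that library.

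Several members differed more by cell class than by library. Polk had 248 to 313 CPM in endothelial-like nuclei over the 4 libraries, and 9.66 to 40.6 CPM in the neuronal, astrocyte and oligodendrocyte-like classes. Fas had 88.3 to 183 CPM in endothelial-like nuclei and at most 0.660 CPM in excitatory neurons, so all 4 endothelial values lay above all 4 neuronal ones. Btg2 had 73.0 to 122 CPM in endothelial-like nuclei and 6.74 to 20.4 CPM in excitatory neurons. Psrc1 ran the other way, with 8.34 to 13.7 CPM in excitatory neurons and at most 1.88 CPM in inhibitory neurons. Within excitatory neurons of ad lib sleep it had 13.3 CPM in layer 2/3 intratelencephalic-like and 18.8 CPM in layer 4/5 intratelencephalic-like nuclei but 3.89 CPM in layer 6 corticothalamic-like nuclei. In the Ex13del library the corticothalamic-like nuclei had 9.88 CPM and the layer 6 intratelencephalic-like nuclei 26.5 CPM, against 2.75 and 8.01 CPM in the wild-type library. Perp was at most 1.77 CPM in excitatory neurons. Among the 6 classes with at least 100 nuclei in every library, the summed members were highest in endothelial-like nuclei (1328 to 1633 CPM). They were lowest there in striatal-like (576 to 723 CPM) and excitatory nuclei (657 to 772 CPM). Smaller classes are not ranked here. The part of free RNA, which adds UMIs to every class, was not tested.

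**Figure D5:**
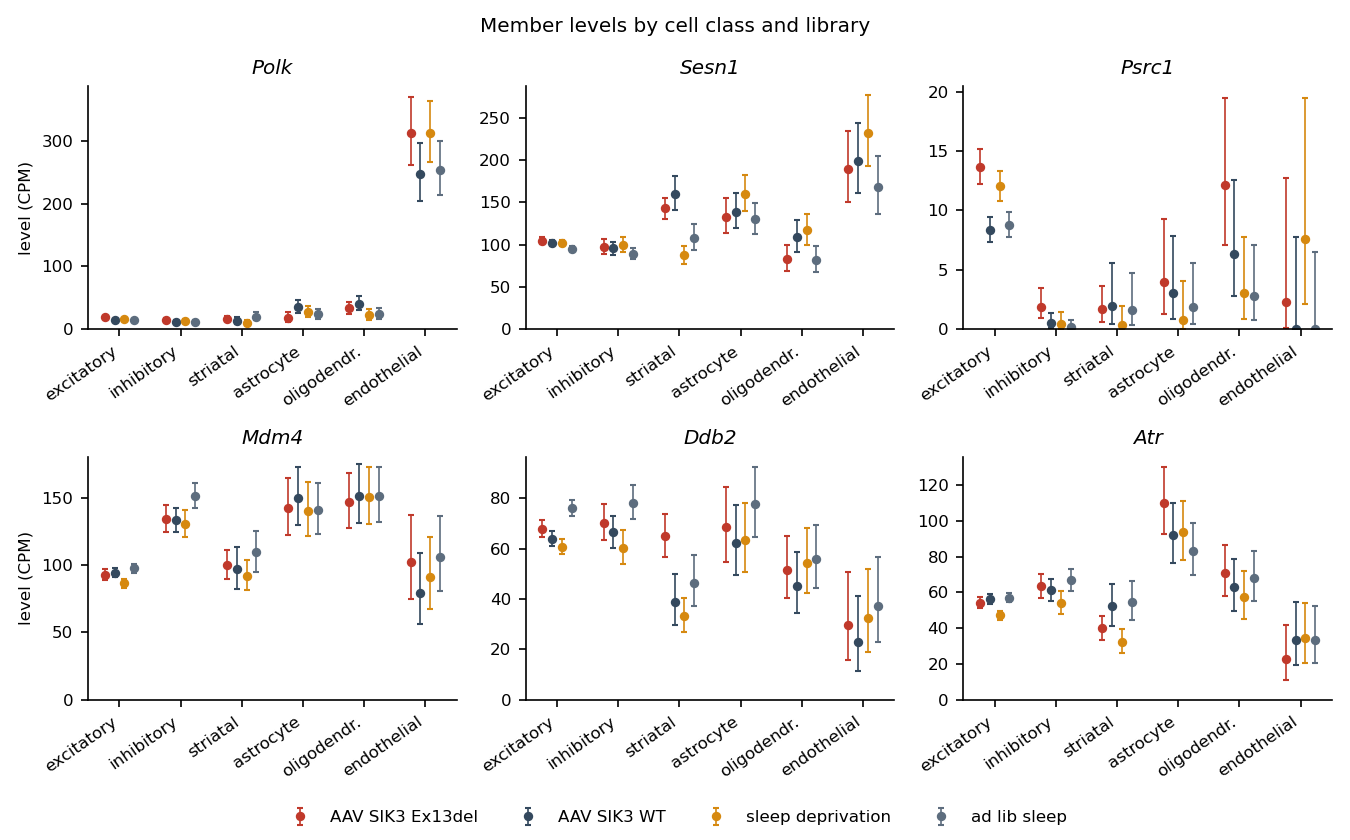
Level (CPM) of Polk, Sesn1, Psrc1, Mdm4, Ddb2 and Atr in 6 cell classes, with 1 point per library (Ex13del, wild type, sleep deprivation and ad lib sleep from left to right) and exact Poisson 95% intervals. Polk lies between 248 and 313 CPM in endothelial-like nuclei of all 4 libraries, and Psrc1 between 8.34 and 13.7 CPM in excitatory neurons.

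The remaining members with at least 5 CPM in excitatory neurons had the following levels over the 4 libraries, given in the order Ex13del, wild type, sleep deprivation and ad lib sleep. Mdm2 stood at 40.0, 32.8, 30.6 and 31.1 CPM, and Mdm4 at 93.1, 94.6, 86.7 and 97.7 CPM. Trp53 had 10.4, 7.68, 8.91 and 8.40 CPM. The Ex13del library was the highest for Mdm2 and Trp53, and its interval for Mdm2 (37.6 to 42.6) did not overlap the others. Sesn1 had 104, 102, 101 and 94.5 CPM, and Zmat3 had 53.1, 49.1, 44.8 and 45.4 CPM. Ccng1 had 18.8, 16.4, 13.8 and 15.7 CPM, and Trp53inp1 had 11.3, 9.20, 7.50 and 8.05 CPM. Bax stood at 19.5, 15.9, 16.8 and 16.2 CPM and Aen at 7.13, 4.97, 4.87 and 4.54 CPM. Trp53inp1, Bax and Aen were highest in Ex13del, as was Polk with 18.6, 14.6, 15.6 and 14.1 CPM. So were Sesn1, Zmat3 and Ccng1, and also Ei24 and Trp53bp1 below. The shares of all genes highest in Ex13del, or with an interval apart from the others, are not given here. Ei24 had 40.8, 38.2, 38.3 and 40.6 CPM, and Plk3 had 5.77, 5.66, 5.42 and 5.89 CPM. Xpc had 17.1, 16.4, 18.0 and 17.4 CPM, Rrm2b 19.7, 20.1, 20.6 and 20.1 CPM, and Ddb2 68.0, 64.0, 60.9 and 76.2 CPM. Atm had 35.1, 35.8, 30.3 and 33.2 CPM, Atr 54.2, 56.4, 47.0 and 57.1 CPM, and Trp53bp1 70.2, 62.3, 52.2 and 66.8 CPM. The sleep deprivation library was the lowest for Atm, Atr and Trp53bp1, but not for the sensor Chek2. It was also the lowest for Mdm2, Mdm4, Zmat3, Ccng1, Trp53inp1, Plk3 and Ddb2. The share of all genes lowest in that library is not given here. In all, 25 members reached 5 CPM in excitatory neurons of some library and 11 did not.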

How the data were processed

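Nuclei of mouse motor cortex were profiled by single-nucleus RNA sequencing (10x 3′ v3.1), and the deposited files hold UMI counts per gene and nucleus, not normalized. Per the submitters' processing notes, Cell Ranger 6.1.2 and the mm10 build were used. Whether the counting used strand is not given in the sources used here. The 32286 features include the vector feature WPRE_pA.

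From these counts, nuclei with at least 500 genes and at most 5% mitochondrial UMIs were kept. Scrublet's own threshold marked 0 to 4 nuclei per library, so the top share by doublet score (0.8% per 1000 barcodes) was removed, 296 to 700 nuclei per library. Nuclei were clustered with scanpy 1.11.5 and leidenalg 0.10.2 (2000 variable genes, 30 components, resolution 1) under Python 3.11.15, and clusters were named from marker lists with naming thresholds set after seeing the data. Unnamed nuclei made up 13.2% (Ex13del), 12.9% (wild type), 29.8% (sleep deprivation) and 9.86% (ad lib sleep) of those kept.

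Counts were summed per class and library, and given as CPM with exact Poisson intervals and ratios with exact conditional intervals (scipy 1.17.1). Genes averaging 5 CPM or more, with 20 UMIs or more, were compared, and called past 1.5-fold. Medians are on the log2(CPM + 1) scale, which understates low genes. TMM factors came from edgeR 4.0.16, with no count test, and calculations were tested on simulated data. Members with at least 5 CPM in excitatory neurons of any library are given per library, along with those past 1.5-fold with an interval that excludes 1. From the other lists, up to 4 called genes of the highest mean level could be named, of which some are printed. The members and lists were chosen with earlier results of these data known. Alternatives covered filters, floors, scaling, doublets, thinning and the vector threshold. Single-library depth limits the precision to counting error, and reads from overlapping genes cannot be separated.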

Additional observations from a re-analysis of the deposited data

Results flagged for a closer look

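Zmat3 went to opposite sides with the vector, with a vector-rich to vector-free ratio of 2.39 in Ex13del excitatory neurons and 0.667 in wild-type ones. Trp53inp1 after sleep deprivation had a ratio to ad lib sleep of 2.94 in endothelial-like nuclei and 0.624 in inhibitory neurons. For Sesn1 that ratio was 1.07 in excitatory neurons, 1.23 in astrocyte-like, 1.43 in oligodendrocyte-like and 1.39 in endothelial-like nuclei, but 0.807 in striatal-like nuclei. Polk, Ex13del over wild type, had a ratio of 1.28 in excitatory neurons and 0.531 in astrocyte-like nuclei. These differences between libraries or classes were not tested, since each group is 1 library.

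Outside the named neurons, nuclei with 3 or more vector UMIs also had high summed member levels. In unnamed nuclei the level was 2480 CPM in Ex13del, against 825 CPM without vector, and 1160 CPM in wild type, against 854 CPM. These were 40 Ex13del and 26 wild-type nuclei, with median depths of 1577.5 UMIs in Ex13del, against 1234 without vector, and 3193.5 UMIs in wild type, against 1125, and 1 wild-type nucleus held 38 of the 122 member UMIs of that library's nuclei. In oligodendrocyte-like nuclei it was 1780 CPM in Ex13del, against 919 CPM, and 1540 CPM in wild type, against 950 CPM. These were 22 Ex13del nuclei and 7 wild-type nuclei, and 1 wild-type nucleus held 21 of the 45 member UMIs of that library's nuclei. The median mitochondrial share of UMIs per nucleus was 2.75% in the Ex13del nuclei with vector, against 0.866% without. In the wild-type ones it was 2.71%, against 1.08%. Median doublet scores were 0.0402 against 0.0187 in Ex13del and 0.0394 against 0.0194 in wild type. Their part in the levels was not tested.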

How the results depend on the processing

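No paired analysis was possible because each group is 1 library. The members' median log2 ratio with the vector in Ex13del excitatory neurons (2.05) was 1.36 at a floor of 20 CPM, 1.41 with nuclei thinned to 3000 UMIs, 1.52 at 2 or more vector UMIs, 2.58 at 10 or more, 1.33 without the layer 6 intratelencephalic-like cluster and 1.28 at 3 to 19 vector UMIs, the last 2 chosen after seeing the data. Its count of members past 1.5-fold (22) was 14 at the 20 CPM floor. The wild-type count (6) was 3 with called doublets kept, 11 with no floor, 1 at the 20 CPM floor, 2 at 2 or more vector UMIs, and 11 at 5 or more and at 10 or more. The sleep deprivation count in excitatory neurons (2) was 1 under the strict nucleus filter and with doublets kept, 5 with no floor, 0 at 20 CPM and 4 when thinned. The Ex13del over wild-type count (3) was 5 under the strict filter, 11 with no floor, 0 at 20 CPM and 0 in vector-free nuclei. The wild-type over ad lib count (1) was 5 with no floor, 0 at 20 CPM and 2 when thinned. Thinning turned the wild-type vector ratios (log2) of Plk3 to -0.58 and Polk to -0.0566. Floors change which genes are compared by construction, and for the others the cause was not tested. Of the results that answer a comparison, 90 alternative values stayed close and 25 moved. For single genes, 403 stayed close, 60 moved and 2 reversed. No cluster drew over 70% of its nuclei from 1 library, so leaving such clusters out gave no value.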
